A study of Mus musculus with 8 samples.

Results

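The genes described here are Csf1r, which encodes the receptor for the growth factors CSF1 and IL-34, and 8 genes for transcription factors that set the identity of microglia: Spi1, Irf8, Runx1, Cebpa, Cebpb, Maf, Mef2a and Mef2c. They were chosen by name, as rows of the count table whose gene symbol matched, and all 9 were found among the 35583 genes listed. Their RNA was measured by bulk sequencing in microglia, the resident macrophages of the brain, isolated out of hypothalamus from wild-type mice described as young. All mice had received dye-labelled plasma protein, and the cells were sorted 20 hours after the injection. The 4 plasma-positive libraries come from microglia that carried the label and the 4 plasma-negative libraries from microglia that did not, so both groups share the injection and the sort. The labels give no strain, sex, exact age, dye or injection route, and do not say whether a library holds cells of 1 animal or of several. The p-values therefore measure the spread between these libraries, which may be technical.

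Microglia need signalling through CSF1R to survive, and blocking the receptor empties the brain of them. The receptor is a tyrosine kinase that passes its signal to PI3-kinase, ERK and STAT pathways once CSF1 or IL-34 binds. Its gene is switched on by PU.1, the product of Spi1, which opens myeloid enhancers together with IRF8, RUNX1 and the C/EBP factors, while MAF and MEF2 factors act at enhancers of the mature microglial state. In bulk libraries, fewer cells of a type and less RNA per cell cannot be told apart.

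Library totals ran from 2963094 to 21422738 counts, and plasma-negative replicate 4 had the lowest total by far (the next had 9421708). Defining microglial genes were high in both groups: the summed level of 9 of them (P2ry12, Tmem119, Cx3cr1, Sall1 and others) was 41740 to 48610 CPM (counts scaled to a common library total) in the plasma-negative group and 44201 to 47878 CPM in the plasma-positive group, and 1 of the 9, Olfml3, was called higher by edgeR, though not with an offset for exon length and GC content (adjusted p = 0.0602), while DESeq2 called Olfml3 and Fcrls higher. The border macrophage markers Cd163, Lyve1, F13a1 and Siglec1 had 0 counts in all 8 libraries, and none of the 3 tested of 10 was called. The 10 summed to 210 to 275 and 185 to 249 CPM, nearly all of it Stab1 (228 and 210 CPM on average). The other tested markers went the other way, Mrc1 at 1.06 and 7.66 CPM on average and Ccl24 at 4.15 and 9.04 CPM. Mrc1 reached 12.1 and 15.3 CPM in plasma-positive replicates 2 and 4, against at most 2.36 CPM in plasma-negative libraries. The 10 monocyte markers summed to at most 14.9 CPM in either group. Of 9 neutrophil markers, Ngp (8481 counts), S100a8 (5908), S100a9 (3365), Ltf (1874) and Camp (1135) were abundant in plasma-positive replicate 3 and had at most 34 counts in any other library, while Ly6g, Retnlg and Mmp8 had 0 counts throughout. The neutrophil list summed to 282 to 342 CPM in the plasma-negative group and 298 to 1365 CPM in the plasma-positive group. Neuronal markers reached 270 CPM in plasma-positive replicate 2 against at most 34.0 CPM in plasma-negative libraries, and the 8 oligodendrocyte markers summed to 158 to 230 and 224 to 560 CPM, with Mal called higher in edgeR, though in no more than 2 of the 8 fits without 1 library (without plasma-negative replicate 2 or plasma-positive replicate 3; adjusted p up to 0.151) and not with the length and GC offset (edgeR, adjusted p = 0.0632). All 7 tested oligodendrocyte markers had positive log2 changes, the 560 CPM came from plasma-positive replicate 2, and DESeq2 also called Cnp higher (98.9 and 161 CPM on average, no overlap; DESeq2 adjusted p = 0.0249). Lymphocyte (30.1 to 85.0 and 54.7 to 94.5 CPM), astrocyte (214 to 327 and 208 to 298 CPM) and endothelial markers (27.3 to 52.7 and 20.4 to 65.1 CPM) overlapped between the groups, and edgeR called none of those it tested. The lymphocyte sum was nearly all Cd79b, the neutrophil sum outside plasma-positive replicate 3 nearly all Csf3r, and the astrocyte sum mostly Slc1a3 (238 and 185 CPM on average). Slc1a2 and Aldoc, other astrocyte genes, reached 67.5 and 42.0 CPM in plasma-positive replicate 2 against at most 7.74 and 10.6 CPM in plasma-negative libraries, and DESeq2 called Aldh1l1 (adjusted p = 0.0299; at most 6.16 CPM). The part of these cells in the results below was not tested, and values without plasma-positive replicate 3 or plasma-negative replicate 4 are given where they matter.

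Csf1r was the 1 gene of the 9 that passed the test across all genes, and it was higher in plasma-positive microglia. The test was edgeR's quasi-likelihood test over 13277 genes with Benjamini-Hochberg adjustment, with adjusted p under 0.05 as the threshold for a call. That rule called 0.844% of all tested genes higher and 0.565% lower, and it called none of the 8 transcription factors in either direction. At an unadjusted p under 0.05 the same fit gave 4 of the 9 genes, Csf1r on the higher side and Maf, Runx1 and Mef2a on the lower side. That threshold was met by 7.13% of all tested genes on the higher and 6.67% on the lower side. DESeq2, run as an alternative, called Csf1r higher and Maf, Runx1 and Mef2a lower; over all genes it called 3.24% higher and 3.26% lower. The 4 libraries of 1 group lay wholly above those of the other for Csf1r (higher) and for Maf and Runx1 (lower), which held for 5.68% and 4.59% of all tested genes in those directions. The median log2 change was -0.04 over the 9 genes and 0.0058 over all tested genes.

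**Figure D1:**
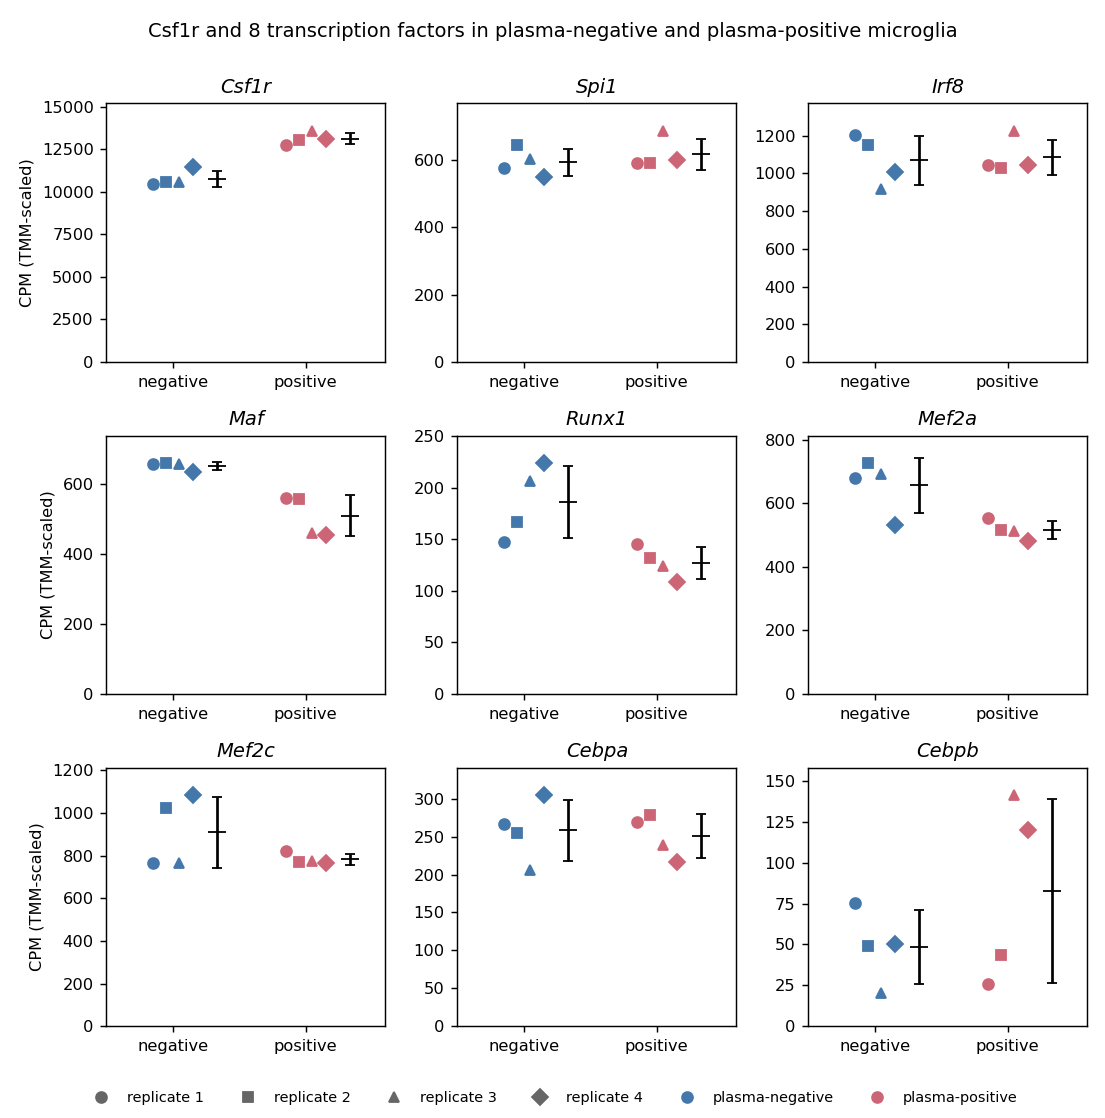
Level of each gene in CPM, scaled between libraries by TMM factors, in the 4 plasma-negative (blue) and 4 plasma-positive (red) libraries, with symbols for replicate numbers and black bars for mean ± SD; every axis starts at 0. Csf1r sits higher and Maf and Runx1 lower in every plasma-positive library, while Spi1, Irf8, Mef2a, Mef2c, Cebpa and Cebpb overlap between the groups.

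Csf1r (ENSMUSG00000024621, chromosome 18, 61100598 to 61132149 in build mm10) stood at 10471, 10577, 10557 and 11473 CPM in plasma-negative replicates 1 to 4. In plasma-positive replicates 1 to 4 it stood at 12765, 13007, 13559 and 13121 CPM. The lowest plasma-positive library was thus above the highest plasma-negative one, and the plasma-negative value nearest to the other group came from replicate 4, the shallowest library. Csf1r rose from a mean of 10770 ± 471 CPM to 13113 ± 332 CPM (SD, n = 4). The log2 change was 0.28 (SE 0.04), with a 95% interval of 0.20 to 0.37 (edgeR, adjusted p = 0.00489). This is a 1.22-fold increase, with an interval of 1.15 to 1.29. The receptor's reads alone made up 1.10% to 1.15% of all counts in the plasma-negative group and 1.21% to 1.30% in the plasma-positive group. The change was 0.27 without plasma-positive replicate 3 and 0.32 without plasma-negative replicate 4, and Csf1r was called in each of the 8 fits that left out 1 library. With an offset for exon length and GC content the change was 0.25 and was no longer called (edgeR, adjusted p = 0.101). With library totals only it was 0.17, still called, while the median of all genes was -0.11. The exons of Hmgxb3 overlap 873 bases, 15.1% of the exon length of Csf1r. All counts of Hmgxb3 together came to 0.487% of those of Csf1r, with 66.7 CPM on average in plasma-negative and 40.2 CPM in plasma-positive libraries. How reads in the shared bases were counted was not tested.

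Spi1 and Irf8, the central pair of myeloid factors, lay at about the same level in both groups. Spi1 (ENSMUSG00000002111, chromosome 2, 91082390 to 91115756) encodes PU.1 and stood at 575, 643, 603 and 549 CPM in plasma-negative replicates 1 to 4. In plasma-positive replicates 1 to 4 it stood at 591, 589, 685 and 598 CPM. The groups overlapped, and plasma-positive replicate 3 was the highest of the 8. The log2 difference was 0.06 with a 95% interval of -0.13 to 0.24 (edgeR, adjusted p = 0.856), so the interval allows levels between 0.911 and 1.18 times those of plasma-negative microglia. Without plasma-positive replicate 3 the difference was 0.0021. It was -0.13 with the length and GC offset and -0.06 with library totals only, where the median of all genes was -0.11. With limma on log2(RPKM + 1) of the deposited values it was 0.18 (limma, adjusted p = 0.293), where the median of all genes was 0.11.

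Irf8 (ENSMUSG00000041515, chromosome 8, 120736358 to 120756694) encodes a factor that binds DNA with PU.1 and is needed for microglia to develop in full number. It stood at 1202, 1150, 918 and 1006 CPM in plasma-negative replicates 1 to 4 and at 1043, 1029, 1225 and 1045 CPM in plasma-positive replicates 1 to 4. Plasma-positive replicate 3 was again the highest, and the other 3 plasma-positive values fell inside the plasma-negative range. The log2 difference was 0.02 with an interval of -0.19 to 0.23 (edgeR, adjusted p = 0.955), and -0.04 without plasma-positive replicate 3.

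Runx1 (ENSMUSG00000022952, chromosome 16, 92601466 to 92826149), the factor that founds the blood and yolk-sac lineages from which microglia descend, was the lowest of the 9 genes per length. It stood at 147, 167, 206 and 224 CPM in plasma-negative replicates 1 to 4 and at 146, 132, 124 and 108 CPM in plasma-positive replicates 1 to 4. The groups did not overlap, but plasma-negative replicate 1 and plasma-positive replicate 1 were within 2 CPM of each other (147.5 and 145.7). The means were 186 ± 35.0 and 127 ± 15.5 CPM (SD, n = 4), and the log2 difference of -0.54 (SE 0.16) had an interval of -0.89 to -0.20 (edgeR, adjusted p = 0.133). DESeq2 gave -0.57 and called it (adjusted p = 0.0180). With the length and GC offset the difference was -0.27 (edgeR, adjusted p = 0.618).

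Cebpa (ENSMUSG00000034957, chromosome 7, 35119293 to 35121928) encodes C/EBP alpha, which commits progenitors to the myeloid line. It stood at 267, 255, 206 and 305 CPM in plasma-negative replicates 1 to 4 and at 269, 279, 239 and 216 CPM in plasma-positive replicates 1 to 4, inside the plasma-negative range throughout. The log2 difference was -0.04 with an interval of -0.34 to 0.26 (edgeR, adjusted p = 0.940). It turned to 0.05 without plasma-negative replicate 4 and to 0.09 with limma on log2(RPKM + 1) of the deposited values, where the median of all genes was 0.11.

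Cebpb (ENSMUSG00000056501, chromosome 2, 167688915 to 167690418) encodes C/EBP beta, which is induced by inflammatory signals and acts on cytokine genes. It stood at 75.1, 48.8, 20.0 and 50.1 CPM in plasma-negative replicates 1 to 4. In plasma-positive replicates 1 to 4 it stood at 25.6, 43.8, 141 and 120 CPM. Plasma-positive replicates 3 and 4 were above all other libraries, and replicates 1 and 2 were inside the plasma-negative range. Its spread between libraries of a group, an SD of 1.01 on the log2 CPM scale, was larger than that of 99.8% of the 5176 tested genes at a mean of at least 32 CPM, whereas the other 8 members were between 0.270% and 30.5% on that measure. The log2 difference of 0.77 had an interval of -0.34 to 1.88 (edgeR, adjusted p = 0.561) and was 0.38 without plasma-positive replicate 3, the library with the neutrophil transcripts. Exons of Tmem189 overlap 312 bases, 20.7% of the exon length of Cebpb, and Tmem189 had 151% as many counts in all, so the counts of Cebpb are uncertain.

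Maf (ENSMUSG00000055435, chromosome 8, 115682942 to 115707794) encodes c-MAF, a factor of mature tissue macrophages. It was very even in plasma-negative microglia, at 659, 661, 659 and 637 CPM in replicates 1 to 4, a coefficient of variation of 1.74%. In plasma-positive replicates 1 to 4 it stood at 562, 559, 462 and 456 CPM. All 4 plasma-positive libraries were below the lowest plasma-negative one, with replicates 3 and 4 lower than replicates 1 and 2. The means were 654 ± 11.4 and 510 ± 58.6 CPM (SD, n = 4), and the log2 difference of -0.36 (SE 0.09) had an interval of -0.56 to -0.16 (edgeR, adjusted p = 0.0849). DESeq2 gave -0.38 (adjusted p = 0.00161), and with library totals only the edgeR value was -0.47 (adjusted p = 0.0310); both called it. With the length and GC offset it was -0.23 (edgeR, adjusted p = 0.413). The difference was -0.31 without plasma-positive replicate 3. Gm15655, whose 440 exon bases all lie within those of Maf (5.34% of its exon length), had 5.19% as many counts as Maf. Whether the same reads were counted for both genes was not tested.

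The MEF2 pair, long genes with exon lengths of 14681 and 15715 bases, had negative log2 differences that turned positive once exon length and GC content were taken into account. MEF2 factors carry activity-dependent and lineage programmes in many tissues, and MEF2C in microglia is known to restrain their response to interferon. Mef2a (ENSMUSG00000030557, chromosome 7, 67231163 to 67372858) stood at 678, 726, 692 and 531 CPM in plasma-negative replicates 1 to 4 and at 554, 517, 512 and 481 CPM in plasma-positive replicates 1 to 4. Plasma-negative replicate 4 was the 1 library that crossed into the other group, lying below plasma-positive replicate 1. The log2 difference was -0.35 (SE 0.10; edgeR, adjusted p = 0.138), and DESeq2 called it at -0.37 (adjusted p = 0.00970). Without plasma-negative replicate 4 it was -0.44 and called (edgeR, adjusted p = 0.0303). With the length and GC offset it was 0.04 (edgeR, adjusted p = 0.934).

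Mef2c (ENSMUSG00000005583, chromosome 13, 83504034 to 83667080) stood at 767, 1021, 765 and 1083 CPM in plasma-negative replicates 1 to 4 and at 821, 770, 775 and 765 CPM in plasma-positive replicates 1 to 4. The plasma-positive values were close together and 3 of the 4 lay between the low and the high plasma-negative pair. The log2 difference of -0.21 had an interval of -0.47 to 0.04 (edgeR, adjusted p = 0.454), was -0.12 without plasma-negative replicate 4, and was 0.20 with the length and GC offset (edgeR, adjusted p = 0.635).

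**Figure D2:**
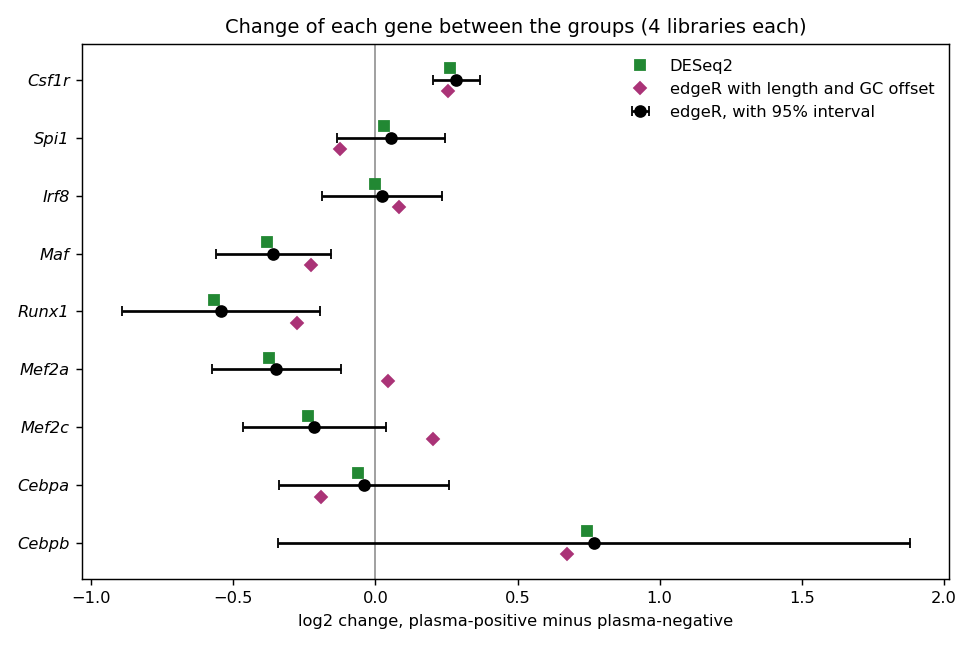
Log2 change of each gene, plasma-positive minus plasma-negative, from edgeR with its 95% interval (black circles), from DESeq2 (green squares) and from edgeR with an offset for exon length and GC content (purple diamonds). Csf1r is on the positive side in all 3 (0.28, 0.26 and 0.25), Maf and Runx1 are on the negative side in all 3, and Mef2a and Mef2c move from -0.35 and -0.21 to 0.04 and 0.20 with the offset.

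The 250 bases before the annotated start were at hand for 6 of the 9 genes (not Csf1r, Spi1 and Maf), as 10 RefSeq windows in build GRCm38.p6. They were searched on both strands for short letter patterns chosen for the members' own families: GAGGAA for PU.1 and its ETS relatives, GAAANNGAA for IRF, TGTGGT for RUNX, CTANNNNTA for MEF2, TTGCNNAA for C/EBP and TGCTGA for MAF. N stands for any base, so patterns with N are looser than a site that needs certain bases there. GAGGAA was present in 4 of the 10 windows, belonging to Mef2a, Mef2c and Runx1, against 23.3% of 32851 windows of the same length. The MEF2 letters were present in 1 window of Mef2c and in the window of Cebpa (19.0% of all windows) and the MAF letters in 1 window each of Irf8 and Mef2c (16.1%). IRF, RUNX and C/EBP letters, present in 7.13%, 14.0% and 9.56% of all windows, were not in these 10. A match is a description of the letters, not a bound site. The 4 windows with GAGGAA are shown as the places where the letters read by PU.1, the activator of Csf1r, occur before other members; capitals mark GAGGAA, or TTCCTC where it lies on the other strand, and each reads 5′ to 3′ on the strand of its gene.

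Mef2a, chr7:67372859-67373108, minus strand, with GAGGAA starting 114 and 103 bases before the start: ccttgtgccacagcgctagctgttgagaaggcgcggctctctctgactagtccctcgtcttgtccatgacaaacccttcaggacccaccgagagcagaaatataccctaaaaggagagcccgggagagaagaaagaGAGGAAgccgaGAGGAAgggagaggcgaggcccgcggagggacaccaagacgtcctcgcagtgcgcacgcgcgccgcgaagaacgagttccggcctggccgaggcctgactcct
Mef2c, chr13:83503784-83504033, plus strand, with GAGGAA starting 122 bases before the start: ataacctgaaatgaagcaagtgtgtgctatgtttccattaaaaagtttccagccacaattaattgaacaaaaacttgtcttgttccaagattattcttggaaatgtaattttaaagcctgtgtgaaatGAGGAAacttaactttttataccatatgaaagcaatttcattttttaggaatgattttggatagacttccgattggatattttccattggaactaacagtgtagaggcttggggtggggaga
Mef2c, chr13:83523406-83523655, plus strand, a start further into the gene, with GAGGAA starting 186 bases before it: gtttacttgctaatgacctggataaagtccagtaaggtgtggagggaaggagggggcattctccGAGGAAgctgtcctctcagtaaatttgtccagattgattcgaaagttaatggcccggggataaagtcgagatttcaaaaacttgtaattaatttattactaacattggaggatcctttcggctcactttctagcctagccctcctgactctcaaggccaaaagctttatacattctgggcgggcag
Runx1, chr16:92697330-92697579, minus strand, the window of the start further into the gene, with TTCCTC starting 46 bases before it: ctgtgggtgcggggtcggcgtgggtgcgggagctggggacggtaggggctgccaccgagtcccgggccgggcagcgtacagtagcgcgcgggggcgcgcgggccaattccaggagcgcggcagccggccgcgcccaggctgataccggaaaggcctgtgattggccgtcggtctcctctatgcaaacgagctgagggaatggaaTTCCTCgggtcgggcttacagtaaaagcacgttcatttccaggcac

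The windows differ in make-up. The window of Mef2a is 61.6% G and C with 21 CpG pairs and that of the inner Runx1 start 67.6% with 27, while the first Mef2c window is 33.6% G and C with 1 CpG pair. Counts per gene do not separate starts, so levels from the 3 Mef2c windows and the 2 Runx1 windows were not told apart.

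Levels of different genes are compared on the deposited RPKM scale, which divides by exon length. Csf1r was far above the rest, at 1588 ± 248 RPKM over the 8 libraries (SD), rank 19 of the 13277 tested genes. The factors followed as Spi1 (171 ± 16.1 RPKM), Irf8 (117 ± 13.1), Cebpa (73.8 ± 10.7), Maf (53.7 ± 6.21), Mef2c (41.0 ± 5.63), Cebpb (33.6 ± 23.3), Mef2a (30.4 ± 3.74) and Runx1 (9.89 ± 2.26). Csf1r exceeded Spi1 by 9.26-fold on average. Csf1r was above Spi1, Spi1 above Irf8, Irf8 above Cebpa, Maf above Mef2c and Mef2a above Runx1 in all 8 libraries, and Cebpa was above Maf in 7. Mef2c was above Cebpb in 5 of 8 libraries and Cebpb above Mef2a in 3, so the place of Cebpb in the order is within its spread. Runx1 ranked 3374 of the tested genes and Spi1 153.

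**Figure D3:**
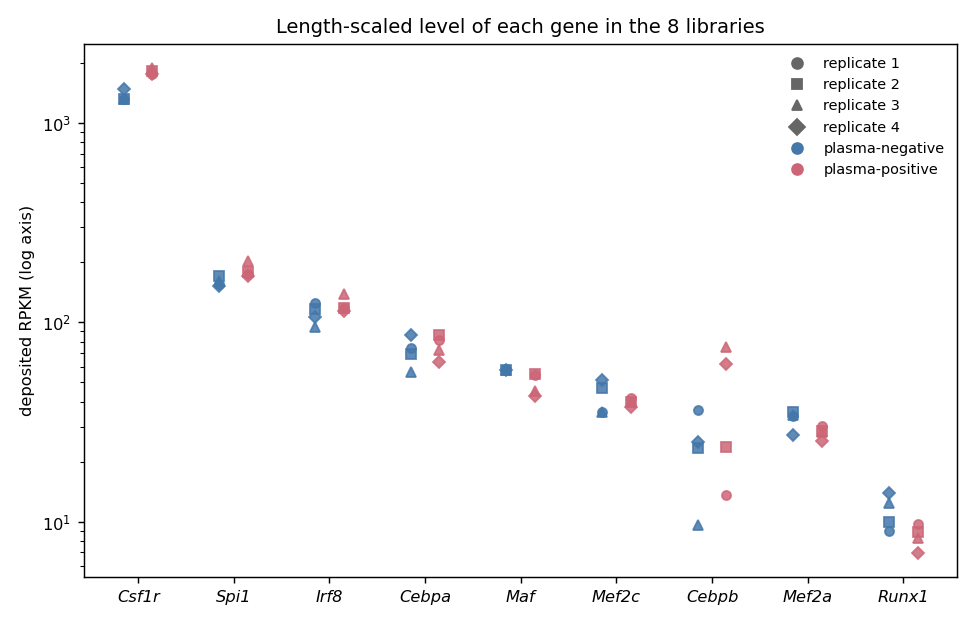
Deposited RPKM of each gene on a log axis, ordered by mean, in plasma-negative (blue) and plasma-positive (red) libraries with symbols for replicate numbers. Csf1r stands at 1319 RPKM or more in every library, the other genes between 6.98 and 204, and Cebpb spreads over the widest range (9.65 to 75.5).

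A ratio of 2 genes inside a library does not depend on how libraries are scaled to each other, but it is not free of library differences by exon length or GC content. Of 5 such ratios, compared per kilobase with two-sided exact permutation tests (smallest possible p 0.0286), 1 separated the groups fully. The log2 ratio of Runx1 to Spi1 was -3.85 ± 0.32 without and -4.44 ± 0.22 with the plasma label (SD, n = 4; exact permutation p = 0.0286, 0.143 adjusted over the 5 ratios). Runx1 has 12025 exon bases and Spi1 2695, and with the length and GC offset their log2 changes were -0.27 and -0.13. Its p was 0.0571 or 0.0857 in 5 of the 8 comparisons with 1 library left out (without plasma-negative replicate 3 or 4 or plasma-positive replicate 2, 3 or 4; exact permutation).

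The log2 ratio of Csf1r to Spi1, the receptor against its activator, was 3.09 ± 0.15 without and 3.32 ± 0.07 with the plasma label, a difference of 0.23 (SD, n = 4; exact permutation p = 0.0571, adjusted 0.143). Plasma-negative replicate 4 (3.29) lay above plasma-positive replicate 3 (3.21), which held the highest Spi1 value; without plasma-negative replicate 4 the difference was 0.30 (exact permutation p = 0.0286). Irf8 to Spi1 differed by -0.03, Mef2a to Mef2c by -0.14 and Cebpa to Cebpb by -0.63, with exact permutation p of 0.6, 0.457 and 0.486 (n = 4). The first was -0.11 without plasma-negative replicate 3 and the second -0.33 without plasma-negative replicate 4, each with an exact permutation p of 0.0286. In plasma-positive libraries the Irf8 to Spi1 ratio stayed between -0.58 and -0.55, also in replicate 3 where both genes were highest, while in plasma-negative libraries it ran from -0.78 to -0.33.

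**Figure D4:**
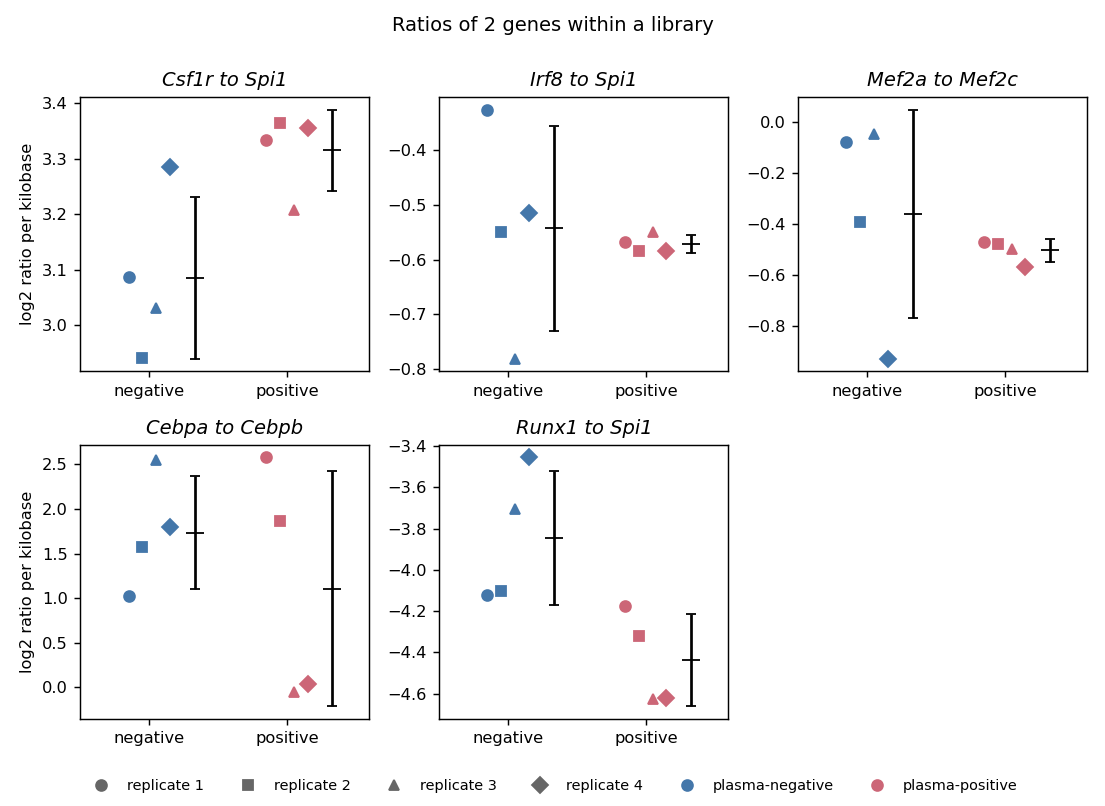
Log2 ratio of 2 genes per kilobase within each library, in plasma-negative (blue) and plasma-positive (red) libraries, with symbols for replicate numbers and black bars for mean ± SD; axes do not start at 0. Runx1 to Spi1 is lower in all 4 plasma-positive libraries than in any plasma-negative one, and the other 4 ratios overlap.

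None of the relatives of the 8 factors described here was called by edgeR, and DESeq2 called 3 of them lower, Etv3, Cebpg and Cebpz; over all genes edgeR called 0.565% and DESeq2 3.26% lower. With the members included, 12 ETS, 8 IRF, 3 MAF, 2 RUNX, 3 MEF2 and 6 C/EBP genes were tested. Among the class III receptor kinases Csf1r was the 1 of 5 with enough counts to test; Kit, Flt3, Pdgfra and Pdgfrb averaged at most 1.25 CPM in either group. Of the 14 ETS genes 12 were tested and Spib and Spic, the close relatives of PU.1, had 0 counts in all libraries. Fli1 (-0.06), Ets1 (0.13), Etv5 (0.10), Elk3 (0.13), Elf2 (0.09), Elf4 (-0.23) and Etv6 (-0.52) overlapped between the groups on the log2 scale of change. Elf1 (171 ± 19.9 and 130 ± 16.2 CPM) and Etv3 (89.7 ± 20.8 and 57.0 ± 7.62 CPM) were lower in every plasma-positive library, with edgeR adjusted p of 0.234 and 0.147 and a DESeq2 adjusted p of 0.0205 for Etv3. Such a lack of overlap on the lower side, seen also for Cebpg and Cebpz, held for 4.59% of all tested genes.

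Of 9 IRF genes 8 were tested, with log2 differences of 0.23 for Irf5, the most abundant after Irf8 in CPM, 0.01 for Irf1, -0.34 for Irf2, -0.37 for Irf3 and 0.08 for Irf9. Maf, Mafg (-0.46) and the scarce Mafk had negative differences with each scaling of counts and with limma on RPKM. Cbfb, the partner subunit of RUNX proteins, had a difference of 0.21 with an interval of -0.44 to 0.86, and Runx2 and Runx3 averaged at most 2.5 CPM in a group. Mef2d had -0.21 with an interval of -0.92 to 0.50. Among the 6 tested C/EBP genes, Cebpd had 0.08, while Cebpg (301 ± 13.6 and 238 ± 19.8 CPM) and Cebpz (146 ± 8.49 and 114 ± 8.43 CPM) were lower in every plasma-positive library, with edgeR adjusted p of 0.145 and 0.221 and DESeq2 adjusted p of 0.00605 and 0.0174.

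**Figure D5:**
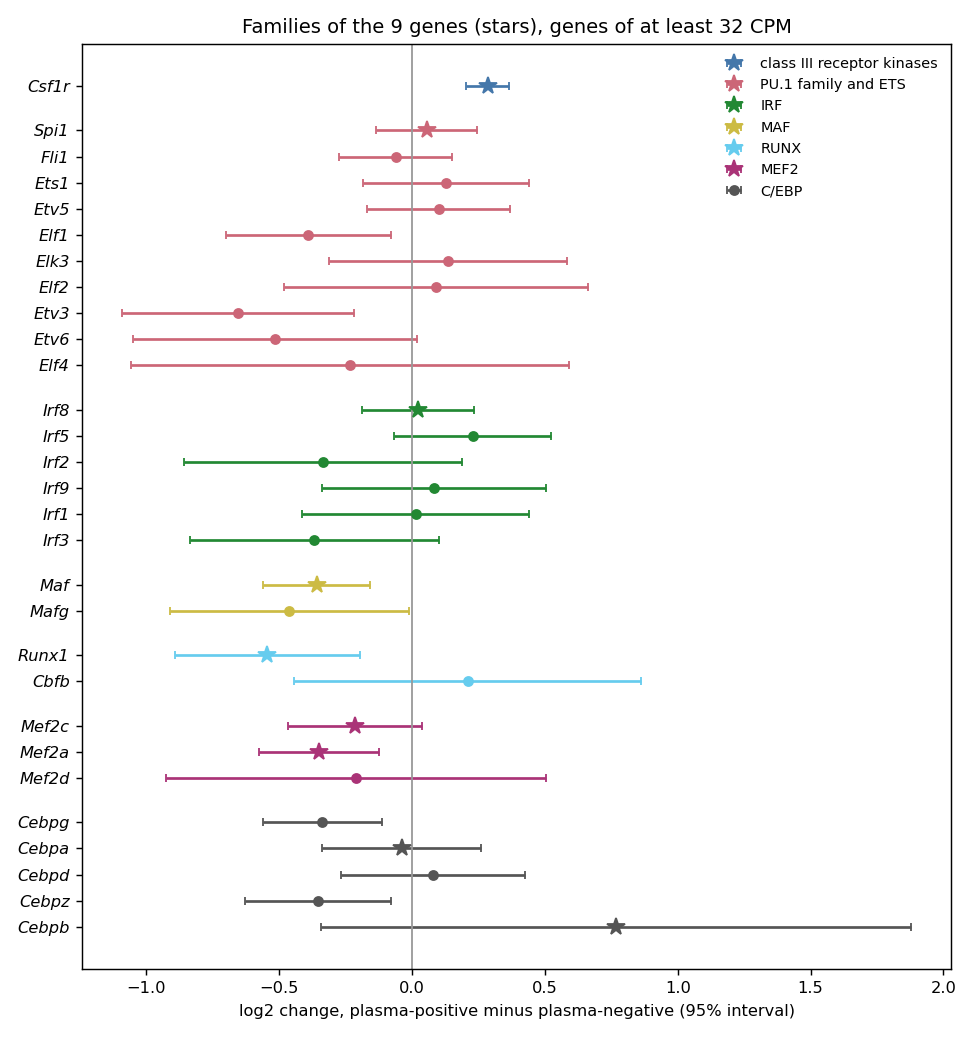
Log2 change with 95% interval from edgeR for tested family members at a mean of at least 32 CPM, coloured by family, with the 9 genes as stars. Csf1r is the 1 gene here that was called; intervals of Maf, Runx1, Mef2a, Elf1, Etv3, Mafg, Cebpg and Cebpz lie below 0 without passing the adjusted threshold.

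The genes that carry the CSF1R signal were taken as ligands, adaptors and effectors, and negative regulators. Csf1 itself was scarce in these cells (5.12 ± 1.70 and 7.98 ± 6.70 CPM; edgeR, adjusted p = 0.820), and Il34, made mainly by neurons, averaged at most 0.275 CPM. Of 24 adaptors and effectors, all tested, edgeR called 1 higher and none lower (0.844% and 0.565% of all tested genes) and DESeq2 2 higher and none lower (3.24% and 3.26%); 12 log2 changes were positive and 12 negative, with a median of -0.0064. At an unadjusted p under 0.05 edgeR gave 4 on the higher and 3 on the lower side, against 7.13% and 6.67% of all tested genes. The gene called by both was Tyrobp, the signalling adaptor DAP12, which rose from 929 ± 77.9 CPM to 1321 ± 124 (SD, n = 4; log2 change 0.51, edgeR, adjusted p = 0.0163). Its call was lost without plasma-negative replicate 1, plasma-negative replicate 2 or plasma-positive replicate 4 (adjusted p at most 0.0520 over the 8 edgeR fits). Map2k1, the kinase MEK1 of the ERK pathway, was at 184 ± 31.0 and 257 ± 23.2 CPM with no overlap and was called by DESeq2 alone (log2 difference 0.48; adjusted p = 0.123 in edgeR and 0.0241 in DESeq2). The other 5 under the unadjusted threshold were Plcg2 (0.44) and Lyn (0.20) on the higher side and Sos1 (-1.30), Gab2 (-0.92) and Stat5a (-0.76) on the lower side, with edgeR adjusted p between 0.187 and 0.323. Of 11 negative regulators and turnover genes, 9 were tested and none was called in edgeR; the median log2 change was 0.07. Inpp5d, the lipid phosphatase SHIP1 that limits PI3-kinase output, was at 561 ± 43.0 and 455 ± 54.8 CPM with a difference of -0.30 (edgeR, adjusted p = 0.204), and Dok1, an adaptor that dampens receptor kinases, at 95.1 ± 4.43 and 127 ± 14.7 CPM with 0.42 (edgeR, adjusted p = 0.186). DESeq2 called both (adjusted p = 0.0328 and 0.0402), 1 lower and 1 higher of this list, against 3.26% and 3.24% of all genes it tested. At an unadjusted p under 0.05 edgeR gave 1 on the higher and 2 on the lower side (7.13% and 6.67% of all tested genes). Inpp5d and Dok1, like the adaptors other than Tyrobp, were named after their values were seen.

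Of 42 other transcription factors of microglia and macrophages, 34 were tested; edgeR called 2 higher and none lower (0.844% and 0.565% of all tested genes), DESeq2 2 higher and 2 lower (3.24% and 3.26% of all genes it tested), and the median log2 change was -0.05. The 2 that DESeq2 called lower, named after their values were seen, were Lyl1 (195 ± 21.1 and 150 ± 14.1 CPM, no overlap; log2 difference -0.37) and Zeb2 (232 ± 32.7 and 170 ± 27.4 CPM; -0.45), with DESeq2 adjusted p of 0.0306 and 0.0311 and edgeR adjusted p of 0.201 and 0.182. With the length and GC offset Lyl1 was at -0.55 and Zeb2 at 0.05. Rela, the p65 subunit of NF-kappaB, rose from 157 ± 12.8 CPM to 235 ± 25.05 (SD, n = 4; log2 change 0.57, edgeR, adjusted p = 0.0423), but lost its call whichever of the 8 libraries was removed (edgeR, adjusted p 0.0730 to 0.128). Egr1, an immediate early factor, had 3, 0, 0 and 0 counts in plasma-negative replicates 1 to 4 and 51, 139, 245 and 16 in plasma-positive replicates 1 to 4 (edgeR, adjusted p = 0.0267), and it too lost its call in all 8 cases (edgeR, adjusted p 0.0508 to 0.0957). Sall1, a factor restricted to microglia among brain macrophages, was at 321 ± 28.9 and 322 ± 48.9 CPM (log2 difference 0.0057; edgeR, adjusted p = 0.990).

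Of 26 genes well known to depend on PU.1 or CSF1R in macrophages, 25 were tested and edgeR called 4 higher, Csf1r and Tyrobp among them, and none lower (0.844% and 0.565% of all tested genes). The list's median log2 change was 0.20 against 0.0058 over all tested genes, and 0.09 against -0.11 with library totals only. The list was chosen with earlier results of these data known and holds Csf1r itself, so these values are a description and not a test. Ctss, a lysosomal protease, rose from 6916 ± 636 CPM to 10399 ± 578 (SD, n = 4; log2 change 0.59, edgeR, adjusted p = 0.00162) and was called in all 8 fits without 1 library. Fcgr2b, the inhibitory Fc receptor, rose from 468 ± 55.7 CPM to 666 ± 70.1 (SD, n = 4; log2 change 0.51, edgeR, adjusted p = 0.0414), and was called in 1 of those 8 fits, the one without plasma-negative replicate 4. With the length and GC offset Ctss was still called (edgeR, adjusted p = 0.0190), and Tyrobp, Fcgr2b, Rela and Egr1 were not (0.186, 0.0728, 0.218 and 0.0565). DESeq2 called 5 higher and none lower (3.24% and 3.26% of all genes it tested); the fifth was Aif1, which encodes IBA1 (log2 difference 0.36; adjusted p = 0.0367 in DESeq2 and 0.129 in edgeR). Groups did not overlap for 8 genes on the higher side (5.68% of all tested genes) and 2 on the lower side (4.59%), the latter Cx3cr1, the fractalkine receptor (11551 ± 494 and 10738 ± 294 CPM; log2 difference -0.11, edgeR, adjusted p = 0.232), and Cd33, an inhibitory sialic acid receptor (259 ± 23.5 and 209 ± 23.2 CPM; -0.30, edgeR, adjusted p = 0.284). Aif1, Cx3cr1 and Cd33 were named after their values were seen.

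Profiles were compared over the 8 libraries by Pearson correlation of log2 CPM with 5175 other genes at a mean of at least 32 CPM; the points share group, depth and scaling, so r is a description. The genes most like Csf1r were Tmsb4x, an actin-binding peptide (r = 0.98), Pld4, an endolysosomal nuclease (0.98), and Laptm5, a lysosomal membrane protein (0.97), and all 3 were called higher themselves, with log2 changes of 0.55, 0.27 and 0.31 (edgeR, adjusted p = 0.00432, 0.0307 and 0.00801). Maf was most like Herc1 (0.97; itself called lower, log2 change -1.08, edgeR, adjusted p = 0.0414), 3222401L13Rik (0.95) and Usp39 (0.95), Mef2a like Akap8l (0.98), Srsf11 (0.97) and Arglu1 (0.96), and Runx1 like Zranb2 (0.96), Nol11 (0.96) and Arid2 (0.95). For Mef2c they were Spsb3 (0.96), Aggf1 (0.96) and Dcaf8 (0.93). For Spi1 they were Ccng1 (0.95), Trafd1 (0.90) and Fyttd1 (0.89), for Irf8 Mto1 (0.95), Chst8 (0.94) and Cyth1 (0.94), for Cebpa Zkscan17 (0.92), Aimp1 (0.92) and Clp1 (0.91), and for Cebpb Lemd2 (0.95), Abhd17c (0.93) and Dnaja3 (0.92). No member was among the 3 genes most like another member.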

How the data were processed

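Sorted hypothalamic microglia were profiled in 8 Smart-seq2 libraries, 4 per group, with group and replicate number taken from the titles. The authors deposited whole-number read counts per gene, and RPKM values deposited by the authors for the same genes. The submitters' processing notes name bcl2fastq, Trim Galore, STAR, HTSeq and build mm10; versions, strand and multi-mapping settings are not given in the sources used here. Of 35583 gene identifiers 35546 were in GENCODE M21 (GRCm38), which gave exon lengths, overlaps and transcript GC content. Without those settings, it is not known how reads in exons shared by overlapping genes were counted.

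Counts were fitted with edgeR 4.0.16 in R 4.3.3 (TMM, default filter, quasi-likelihood test, no covariate). Adjusted p is Benjamini-Hochberg over all tested genes. The 95% interval is the log2 change ± the t quantile times its SE. CPM is scaled by TMM, with a prior count of 2 in logs. The length and GC offset is a per-library loess (span 0.3). It was fitted to these same libraries, so it can also take out group differences that follow exon length or GC content. DESeq2 1.42.0 and limma 3.58.1 were alternatives, the latter also on log2(RPKM + 1) and log2(RPKM + 0.1). Ratios used exact permutations over 70 assignments. The fits were also run on simulated counts, and the outcome is not reported here.

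Each of the 9 members is named, as is each called gene of a list, each family gene at a mean of 32 CPM or more, and the 3 genes most like each member. Members and lists were chosen with earlier results of these data known. The deposited tables hold 8 further per-sample columns, which were not used. The fewest counts of a member in a library were 149 (Cebpb, plasma-negative replicate 4). Reads were amplified and carry no molecular identifiers, so they do not each stand for 1 molecule. Some planned results for 2 listed genes are not reported here.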

Additional observations from a re-analysis of the deposited data

Results flagged for a closer look

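In 4 of 28 groups of 4 libraries checked (the 9 genes and 5 ratios in each group), 1 library stood far from the other 3; chance flags about 5% of such groups. Csf1r was at 11473 CPM in plasma-negative replicate 4, against 10577 CPM in the nearest other library of that group, and Maf at 637 CPM there, against 659. Both values lay toward the plasma-positive group. In plasma-positive replicate 3, the library with neutrophil transcripts, Spi1 was at 685 CPM, against 598 in the nearest, and Irf8 at 1225 CPM, against 1045. Causes were not tested.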

How the results depend on the processing

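The 187 called genes became 965 with DESeq2, 447 and 432 with limma on log2(RPKM + 1) and log2(RPKM + 0.1), 74 with the replicate number as a block, 45 with the length and GC offset, 11 with that offset and the block, and 66 to 203 when 1 library was left out; the 203 came without plasma-negative replicate 4, and each of the other 7 libraries left 66 to 93. The share called higher, 59.9%, was 28.2% with library totals only, 49.8% with DESeq2, 86.8% and 85.6% on RPKM, 70.3% with the block and 73.3% with the offset. Deviations from the group means were not more alike for the same replicate number (correlation 0.0012) than for different ones (-0.00041), and 2 of 8 libraries matched their own number best. These deviations are centred within groups of 4 libraries, so the check cannot exclude that libraries with the same number share animals. With the block Csf1r stayed called (adjusted p = 0.0122, edgeR). Csf1r passed in 19 of 21 alternatives; it missed with the length and GC offset, at 0.25, and with that offset and the block, at 0.26 (edgeR, adjusted p = 0.101 and 0.117). Maf passed with DESeq2 (-0.38) and library totals only (-0.47), Runx1 with DESeq2 (-0.57), and Mef2a with DESeq2 (-0.37) and without plasma-negative replicate 4. Signs turned for Spi1 with library totals only (-0.061), the offset (-0.13) and the offset with block (-0.12), for Irf8 with relative log expression (-0.0014), library totals only (-0.094), DESeq2 (-0.0016) and thinning (-0.026), for Mef2a with the offset (0.042, and 0.045 with block), for Mef2c likewise (0.20 and 0.22), and for Cebpa on RPKM (0.090 and 0.091). Leaving out 1 library gave 0.27 to 0.32 for Csf1r, 0.0021 to 0.10 for Spi1, -0.042 to 0.083 for Irf8, -0.41 to -0.31 for Maf, -0.64 to -0.44 for Runx1, -0.44 to -0.30 for Mef2a, -0.29 to -0.12 for Mef2c, -0.13 to 0.050 for Cebpa and 0.38 to 1.07 for Cebpb. For the ratios it gave 0.18 to 0.30 for Csf1r to Spi1, -0.11 to 0.044 for Irf8 to Spi1, -0.33 to -0.037 for Mef2a to Mef2c, -1.12 to -0.24 for Cebpa to Cebpb and -0.68 to -0.46 for Runx1 to Spi1. Sign flips within replicate numbers (block) gave exact p = 0.125, the smallest 4 pairs allow, for Runx1 to Spi1 (-0.59). Why these values moved was not tested.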
